A study of Mus musculus with 12 samples.

Results

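Transcripts of the 8 interferon receptor chains and Janus kinases were followed through 4 groups of cultured mouse T cells. They are the rows with the symbols Ifngr1, Ifngr2, Ifnar1, Ifnar2, Jak1, Jak2, Jak3 and Tyk2, which make 8 of the 20778 genes in the count table, and 8 of 8 passed the expression filter that left 12122 genes for testing. The cells were labelled as CD8 T cells, taken with magnetic beads from the spleen of C57BL/6 mice. Each group had 3 mRNA libraries, made after 6 hours of culture. Naïve cells were left untreated, αCD3 cells received 1 µg/ml of an antibody to the CD3 part of the T cell receptor, IFNγ cells received the cytokine interferon gamma at 70 ng/ml, and LPS cells received the bacterial product lipopolysaccharide at 1 µg/ml. The antibody and LPS doses are in µg/ml in one label field but in mg/ml in another, and the labels give an age of 6 weeks where the study's methods give older mice, so both details are uncertain. The general culture methods of the study add IL-2 and anti-CD3-coated plates unless stated otherwise, and the labels do not say whether that held for these cultures. No label ties a library to a mouse, so a p-value measures the spread between libraries, which may be technical.

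Interferons signal through pairs of receptor chains with a Janus kinase bound to each chain. IFNγ is bound by IFNGR1, which carries JAK1, and signals once IFNGR2, which carries JAK2, joins it, so that STAT factors are phosphorylated. Type I interferons (IFNα and IFNβ) use IFNAR1 with TYK2 and IFNAR2 with JAK1, and signal through STAT factors and IRF9. JAK3 serves the common gamma chain of the receptors for IL-2, IL-7, IL-15 and related cytokines, on which T cells depend. In T cells the amount of the IFNGR2 chain is known to be able to limit the response to IFNγ.

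Levels are given as CPM (counts in a library scaled to a total of 1000000), and a gene is named as called, higher or lower when edgeR's quasi-likelihood test gave a Benjamini-Hochberg adjusted p under 0.05 over all tested genes. When all 4 groups were tested at once for a difference of any kind, 4 of 4 receptor chains and 0 of 4 kinases were called, against 59.9% of all tested genes. The adjusted p was 2.58e-06 for Ifngr1, 1.69e-04 for Ifngr2, 0.00654 for Ifnar1 and 0.0165 for Ifnar2. For the kinases it was 0.186 for Jak1, 0.313 for Jak2, 0.126 for Jak3 and 0.108 for Tyk2, while the unadjusted p was under 0.05 for 0 of them. With the replicate number as a block, Jak1 (adjusted p = 5.28e-04) and Jak3 (0.0302) were called as well and Jak2 (0.0609) and Tyk2 (0.112) were not, against 72.2% of all tested genes. Ifnar2 was not called without αCD3 replicate 1 (adjusted p = 0.061), and Tyk2 was called without LPS replicate 2 (adjusted p = 0.0252). Jak3 was also called with upper quartile factors (adjusted p = 0.0142) and with library size alone (0.00461), so its result depended on the scaling. Whether receptor chains and kinases differ in how they changed was not tested.

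**Figure D1:**
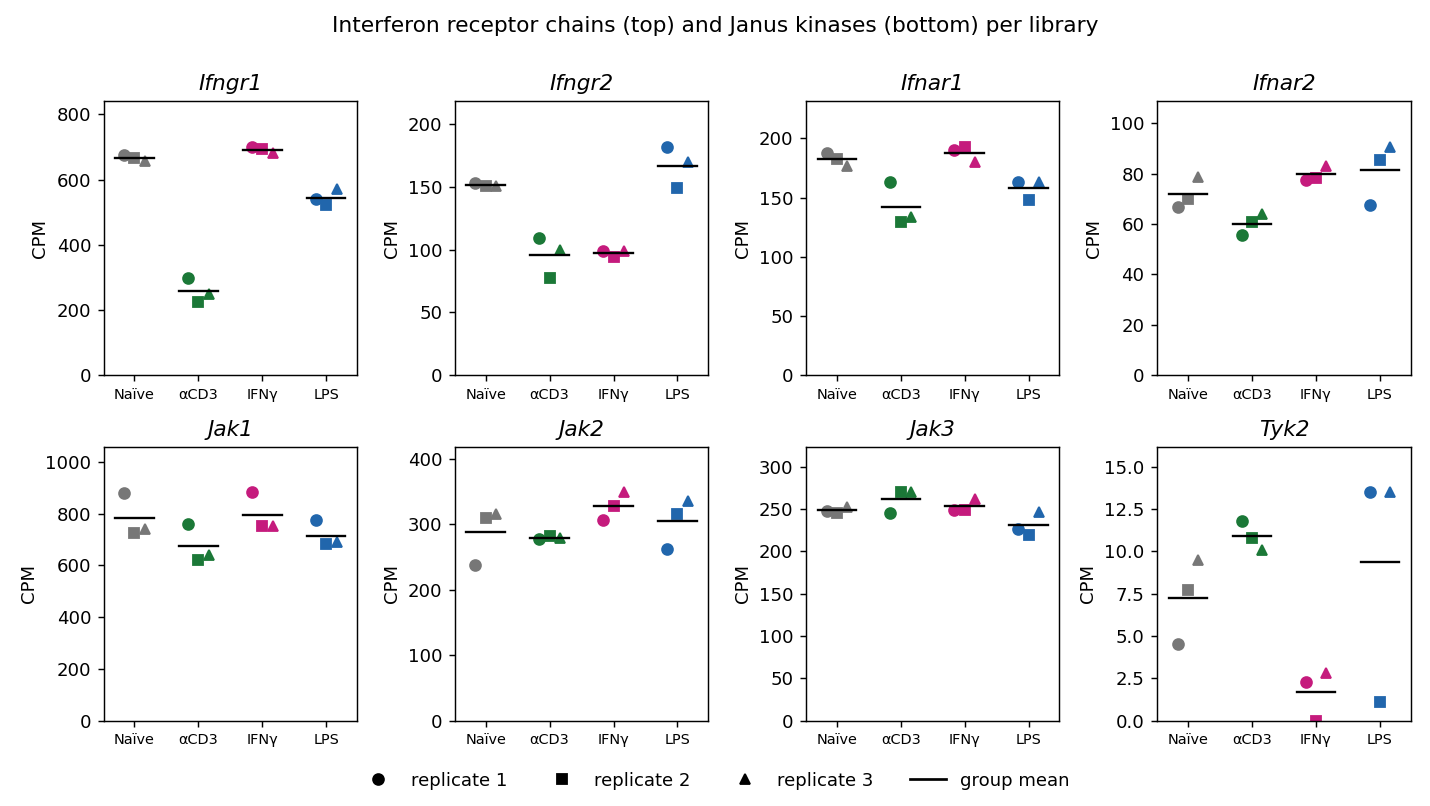
Each panel shows 1 gene, with CPM on the vertical axis and the 4 groups on the horizontal axis; points are libraries, their shape gives the replicate number and the line is the group mean. Ifngr1 was lowest in the 3 αCD3 libraries (223 to 297 CPM), Ifngr2 was at 77.4 to 109 CPM in the αCD3 and IFNγ libraries against 151 to 153 CPM in the Naïve libraries, and Jak1 was highest in replicate 1 of every group.

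The libraries held 10196248 to 27610175 counts and 14348 to 15372 detected genes. Replicate 1 stood apart in each group: counts of replicates 2 and 3 differed with a chi-square per degree of freedom of 4.65 to 5.77, and those of replicate 1 from either with 20.6 to 55.6. T cell markers were present (Cd3e at 87.6 to 187 CPM, Cd8a at 188 to 504 CPM), but so were 12 of 12 B cell markers. Cd79a, a chain of the B cell receptor, was at 827 to 958 CPM in Naïve, 591 to 721 CPM in αCD3, 813 to 945 CPM in IFNγ and 234 to 377 CPM in LPS libraries. Myeloid markers were found too, with 14 of 14 genes detected in every group. These genes are known to be expressed in such cells too, so the values below describe the mixture, and in such bulk samples fewer cells of a type and less RNA per cell cannot be told apart.

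The IFNγ receptor is described first. Ifngr1, the ligand-binding chain, lies on chr10:19591949-19610229 (plus strand, GRCm38) and Ifngr2, the second chain, on chr16:91547072-91565623 (plus strand, GRCm38), where it is the last of 4 receptor genes (Ifnar2, Il10rb, Ifnar1 and Ifngr2) within 192.8 kb. The 250 bases before the start of each are shown because these 2 chains of 1 receptor moved apart under IFNγ; they are RefSeq sequences of build GRCm38.p6, plus strand, 5′ to 3′, and 8 of 8 members had such an entry. Capitals mark matches to the motifs searched on both strands, which in Ifngr1 are 2 GC boxes (GGGCGG, here in its reverse form) and in Ifngr2 first a match to the NF-κB motif and then 4 GC boxes, some of which touch or share a base.
Ifngr1, chr10:19591699-19591948: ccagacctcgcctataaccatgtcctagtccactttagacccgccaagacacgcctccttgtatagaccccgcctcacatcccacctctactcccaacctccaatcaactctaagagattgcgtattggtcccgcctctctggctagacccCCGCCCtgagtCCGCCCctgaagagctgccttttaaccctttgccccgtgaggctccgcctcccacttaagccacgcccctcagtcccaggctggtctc
Ifngr2, chr16:91546809-91547058: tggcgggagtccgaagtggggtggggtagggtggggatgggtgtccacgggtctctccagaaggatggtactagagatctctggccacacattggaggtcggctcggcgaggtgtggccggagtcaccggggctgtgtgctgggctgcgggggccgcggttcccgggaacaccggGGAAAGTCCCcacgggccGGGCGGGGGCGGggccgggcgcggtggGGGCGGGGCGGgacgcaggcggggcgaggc
A GC box stood in 32.7% of the 32851 promoters of this length and in 7 of the 8 members (not Ifnar2), and the NF-κB motif, a site of factors used downstream of both CD3 and Toll-like receptors, in 3.9% of promoters and in 1 member. The GAS element, a site of STAT dimers (TTCNNNGAA, 7.02% of promoters) was matched in the window of Ifnar2 alone, and the ISRE core, a site of type I interferon signalling (GAAANNGAA, 7.13% of promoters) in that of Jak3 alone. These matches describe letters in the window and say nothing of binding.

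Ifngr1 stood at 675, 666 and 658 CPM in the Naïve libraries and at 297, 223 and 250 CPM in the αCD3 libraries. It stood at 701, 693 and 682 CPM with IFNγ and at 541, 522 and 571 CPM with LPS. The αCD3 libraries lay below those of every other group, the LPS libraries lay between them and the rest, and the IFNγ libraries lay just above the Naïve libraries without overlap under this scaling. Ifngr1 fell by 61.4% with αCD3 (log2 fold change -1.37 ± 0.09 SE, adjusted p = 5.76e-06) and by 0.29 on the log2 scale with LPS (SE 0.09, adjusted p = 0.0186), though not past the threshold without LPS replicate 2 (adjusted p = 0.0697). With IFNγ the difference from Naïve was 0.05 ± 0.09 with a 95% interval of -0.14 to 0.25 (adjusted p = 0.759). Between treatments, Ifngr1 was higher with IFNγ than with αCD3 by 1.43 ± 0.09 (adjusted p = 3.65e-06), higher with IFNγ than with LPS by 0.34 ± 0.09 (adjusted p = 0.00955), and lower with αCD3 than with LPS (-1.08 ± 0.09, adjusted p = 2.49e-05). In the order IFNγ, Naïve, LPS, αCD3 the first pair of neighbours was thus not told apart, and the next 2 steps were called.

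Ifngr2 followed another order. It stood at 153, 151 and 151 CPM in the Naïve libraries and at 98.9, 93.9 and 99.0 CPM with IFNγ. With αCD3 it stood at 109, 77.4 and 100 CPM, and with LPS at 182, 149 and 170 CPM. The IFNγ and αCD3 libraries lay below all Naïve and LPS libraries and overlapped each other, and LPS replicate 2 lay just below the Naïve range. Ifngr2 fell by 35.9% with IFNγ (-0.64 ± 0.11, adjusted p = 0.00423) and by 37.0% with αCD3 (-0.67 ± 0.11, adjusted p = 0.001). The difference between IFNγ and αCD3 was 0.02 ± 0.11 with an interval of -0.22 to 0.27, so a gap beyond 0.27 in either direction lay outside it. With LPS the difference from Naïve was 0.14 ± 0.11 (interval -0.11 to 0.38, adjusted p = 0.331), and Ifngr2 was lower with IFNγ (-0.78 ± 0.11, adjusted p = 2.78e-04) and with αCD3 (-0.80 ± 0.11, adjusted p = 7.70e-04) than with LPS.

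The ratio of the 2 chains within a library does not depend on how libraries are scaled. Ifngr1 to Ifngr2 CPM was 4.40, 4.41 and 4.37 in the Naïve libraries (mean 4.39 ± 0.023 SD, n = 3) and 7.09, 7.37 and 6.89 with IFNγ (7.12 ± 0.243 SD). It was 2.73, 2.88 and 2.50 with αCD3 (2.70 ± 0.192 SD) and 2.97, 3.50 and 3.37 with LPS (3.28 ± 0.276 SD). The 4 groups did not overlap, with IFNγ above Naïve and both αCD3 and LPS below it. Beside Naïve, Ifngr2 was the chain called lower with IFNγ and Ifngr1 the chain called lower with LPS, while with αCD3 both were lower and Ifngr1 by the larger fold. These ratios follow from the levels above and carry no test of their own.

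**Figure D2:**
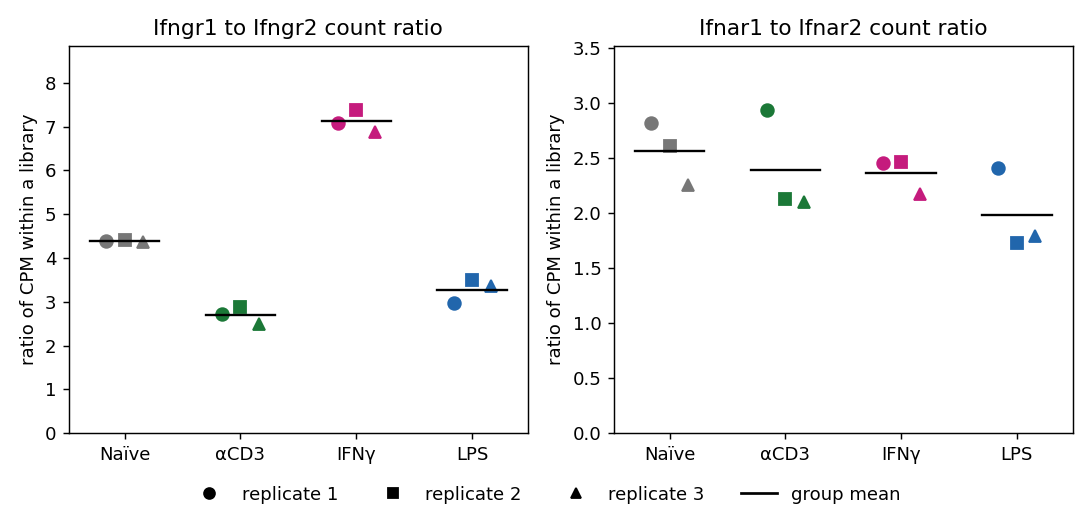
The ratio of the CPM of 2 receptor chains within each library (vertical axis) for the 4 groups (horizontal axis), with points as libraries, shapes as replicate numbers and lines as group means. For the IFNγ receptor (left) the groups are separate, from 2.50 to 2.88 with αCD3 to 6.89 to 7.37 with IFNγ, and for the type I receptor (right) they overlap.

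The summed CPM of the B cell markers was lower in the 3 treated groups than in Naïve. It was 8696 to 9599 in Naïve, 6056 to 6807 in αCD3, 7186 to 7451 in IFNγ and 5623 to 6922 in LPS libraries, or, without Cd74, a known IFNγ-inducible gene, 3518 to 3861, 2450 to 2877, 2865 to 3044 and 1996 to 3018. The sum of the CD8 T cell markers was 1760 to 1964, 2364 to 2555, 1804 to 1971 and 1451 to 1660 in the same order, and that of the myeloid markers 975 to 1850, 880 to 1620, 1529 to 2515 and 1106 to 1765. Other marker sums were 103 to 122, 79.2 to 94.7, 91.3 to 112 and 66.9 to 80.8 for CD4 T cells, and 21.9 to 66.5, 16.9 to 52.6, 25.3 to 95.9 and 38.6 to 193 for NK cells. Of the 6 NK markers, 0 were called higher and 1 lower with LPS (26.9% and 22.3% of all tested genes), with a median log2 fold change of -0.42. Gzma, part of that sum, was at 11.8 to 41.5 CPM in Naïve and 31.8 to 176 CPM in LPS libraries. Its change was not called (adjusted p = 0.0631). Dendritic cell markers summed to 74.4 to 123 CPM in Naïve, 66.1 to 80.2 in αCD3, 49.4 to 76.0 in IFNγ and 73.5 to 95 in LPS, with Cd209a at 0 in LPS. Neutrophil markers summed to 118 to 187 CPM in Naïve, 77.8 to 93.1 in αCD3, 106 to 140 in IFNγ and 88.3 to 102 in LPS, with Ly6g at 0 in αCD3, and erythroid markers to 337 to 4115 CPM over all libraries. Single myeloid markers went different ways: of 13 tested, 1 was higher and 5 were lower with αCD3, 1 higher and 5 lower with LPS, and 2 higher and 0 lower with IFNγ. Of all tested genes 22.9% were higher and 15.7% lower with αCD3, 26.9% and 22.3% with LPS, and 8.17% and 4.27% with IFNγ. With αCD3, Cybb was higher (0.93 ± 0.32), and Csf1r (-1.19 ± 0.38), Itgam (-0.99 ± 0.31), Adgre1 (-0.89 ± 0.27), Spi1 (-0.76 ± 0.12) and Cd68 (-0.75 ± 0.23) were lower. The part of these cells in the fall of Ifngr1 or Ifngr2 was not tested.

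The type I interferon receptor has the chains Ifnar1 and Ifnar2. Ifnar1, on chr16:91485238-91507441 (plus strand), stood at 188, 183 and 177 CPM in the Naïve libraries and at 163, 129 and 134 CPM with αCD3. It stood at 190, 193 and 180 CPM with IFNγ and at 163, 148 and 163 CPM with LPS. The αCD3 and LPS libraries lay below all Naïve and IFNγ libraries and overlapped each other. Ifnar1 fell by 22.1% with αCD3 (-0.36 ± 0.09, adjusted p = 0.00765) and was not called with LPS (-0.21 ± 0.09, adjusted p = 0.0623) or with IFNγ (0.04 ± 0.09, interval -0.15 to 0.23). The fall with LPS was called in 6 of 14 alternatives. The adjusted p was 0.0208 with the replicate block, 0.0239 with DESeq2 and 0.027 with the 6 libraries of the pair alone. With other scaling it was 0.0384 (RLE factors), 0.00805 (upper quartile factors) and 0.00485 (library size alone). Ifnar1 was higher with IFNγ than with αCD3 (0.40 ± 0.09, adjusted p = 0.00418), and than with LPS by 0.25 ± 0.09 (adjusted p = 0.0387), where the call was lost on leaving out any 1 of the 6 IFNγ and LPS libraries (adjusted p = 0.0505 to 0.138). Between αCD3 and LPS the difference of -0.15 ± 0.09 was not called, except without αCD3 replicate 1 (adjusted p = 0.028).

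Ifnar2, on chr16:91372783-91405589 (plus strand), stood at 66.6, 69.9 and 78.7 CPM in the Naïve libraries and at 55.6, 60.7 and 63.9 CPM with αCD3. It stood at 77.5, 78.4 and 83.2 CPM with IFNγ and at 67.5, 85.6 and 90.7 CPM with LPS. The αCD3 libraries lay below those of every other group, and the other 3 groups overlapped. Ifnar2 was higher with IFNγ than with αCD3 (0.41 ± 0.11, adjusted p = 0.0122) and lower with αCD3 than with LPS (-0.44 ± 0.11, adjusted p = 0.0167). The call between αCD3 and LPS was lost without αCD3 replicate 1 (adjusted p = 0.0593), LPS replicate 2 (0.066) or LPS replicate 3 (0.0704), and with the 6 libraries of the pair alone (0.0716). Against Naïve, αCD3 gave -0.26 ± 0.11 (adjusted p = 0.0799, and 0.00699 with the replicate block) and LPS gave 0.18 ± 0.11 (0.186, and 0.0371 with the block or 0.0166 without LPS replicate 1). IFNγ gave 0.15 ± 0.11 against Naïve (interval -0.09 to 0.39) and -0.03 ± 0.11 against LPS (-0.27 to 0.21), neither called. Reads of Ifnar2 could be shared with Gm21970, a transcript that overlaps it on the same strand, and 91.5% of its 31-base words were found in no other gene. The ratio of Ifnar1 to Ifnar2 was 2.56 ± 0.29 in Naïve, 2.39 ± 0.473 in αCD3, 2.36 ± 0.168 in IFNγ and 1.98 ± 0.377 in LPS (SD, n = 3), with overlap between groups. Il10rb, which lies between these 2 genes and encodes a chain for IL-10 and lambda interferons, was at 74.0 to 81.6 CPM in αCD3 libraries and at 95 to 110 CPM in all others (αCD3 against Naïve -0.38 ± 0.07, adjusted p = 0.00105). Gm21970 overlaps Il10rb on the same strand as well, and the part of shared reads was not tested.

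Jak1, the kinase shared by both interferon receptors, lies on chr4:101152367-101265282 (minus strand). It stood at 880, 724 and 742 CPM in Naïve, 759, 622 and 642 CPM in αCD3, 883, 752 and 751 CPM in IFNγ and 774, 681 and 692 CPM in LPS libraries. In each group replicate 1 was the highest library, and the groups overlapped. The fold changes against Naïve were 0.02 ± 0.11 with IFNγ (interval -0.21 to 0.26), -0.21 ± 0.11 with αCD3 (-0.45 to 0.02) and -0.13 ± 0.11 with LPS, and Jak1 was called in 0 of the 6 pairs of groups. With the replicate block it was lower with αCD3 (-0.21 ± 0.04, adjusted p = 7.04e-04) and with LPS (-0.12 ± 0.04, adjusted p = 0.0131) than in Naïve. The block also called it higher with IFNγ than with αCD3 (0.24 ± 0.04, adjusted p = 3.27e-04) and than with LPS (0.15 ± 0.04, adjusted p = 0.00552). Without αCD3 replicate 1 and with no block, Jak1 was called lower with αCD3 than in Naïve (adjusted p = 0.0421) and higher with IFNγ than with αCD3 (0.0333). Between αCD3 and LPS the difference was -0.09 ± 0.11 (interval -0.32 to 0.15).

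Jak2, the kinase of IFNGR2, lies on chr19:29251828-29313080 (plus strand). It stood at 238, 309 and 316 CPM in Naïve, 277, 282 and 279 CPM in αCD3, 306, 328 and 349 CPM in IFNγ and 262, 315 and 336 CPM in LPS libraries. The 3 αCD3 libraries were close together, below the IFNγ libraries and within the Naïve and LPS ranges, and the other groups had their lowest value in replicate 1. The fold changes against Naïve were 0.19 ± 0.12 (interval -0.07 to 0.44) with IFNγ, -0.05 ± 0.12 with αCD3 and 0.08 ± 0.12 with LPS, and Jak2 was called in 0 of 6 pairs of groups. With the block it was higher with IFNγ than with αCD3 (0.22 ± 0.07, adjusted p = 0.0254). Without it the differences were 0.23 ± 0.12 between IFNγ and αCD3, 0.10 ± 0.12 between IFNγ and LPS (interval -0.15 to 0.36) and -0.13 ± 0.12 between αCD3 and LPS (-0.38 to 0.13). The ratio of Jak2 to Jak1 was 0.375 ± 0.0903 in Naïve, 0.417 ± 0.046 in αCD3, 0.416 ± 0.0617 in IFNγ and 0.429 ± 0.0788 in LPS (SD, n = 3), and it was lowest in replicate 1 in each group.

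Jak3, the kinase of the common gamma chain, lies on chr8:71676296-71690575 (plus strand). It stood at 248, 245 and 253 CPM in Naïve, 245, 270 and 270 CPM in αCD3, 249, 249 and 262 CPM in IFNγ and 227, 219 and 247 CPM in LPS libraries. The LPS libraries lay below the IFNγ libraries and overlapped the Naïve and αCD3 libraries by 1 library. The intervals against Naïve were -0.11 to 0.17 with IFNγ, -0.07 to 0.22 with αCD3 and -0.25 to 0.04 with LPS. Jak3 was higher with αCD3 than with LPS with the block (0.18 ± 0.05, adjusted p = 0.0144), by DESeq2 (adjusted p = 0.0438) and without αCD3 replicate 1 (0.0429), and not in the fit without the block (0.18 ± 0.06, adjusted p = 0.0737). With the block it was also higher with IFNγ than with LPS (0.13 ± 0.05, adjusted p = 0.0367). With upper quartile factors and with library size alone, Jak3 was called lower with LPS than in Naïve (adjusted p = 0.00564 and 0.00164). Under the same scalings it was also lower with LPS than with IFNγ (0.0149 and 0.0215) and than with αCD3 (0.0289 and 0.00913). Between IFNγ and αCD3 the difference was -0.05 ± 0.06 (interval -0.19 to 0.09) and was not called. Insl3 overlaps Jak3 on the same strand, and 91.7% of the 31-base words of Jak3 were found in no other gene.

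Tyk2, the kinase of IFNAR1, lies on chr9:21104068-21131243 (minus strand) and had few counts. It stood at 4.53, 7.74 and 9.50 CPM in Naïve, 11.8, 10.8 and 10.1 CPM in αCD3, 2.27, 0 and 2.82 CPM in IFNγ and 13.5, 1.09 and 13.5 CPM in LPS libraries. The IFNγ libraries lay below all Naïve and αCD3 libraries, and LPS replicate 2 lay among the IFNγ values. The estimated counts behind the IFNγ values were, as whole numbers, 28, 0 and 29, and LPS replicate 2 held 13 where the other LPS libraries held 132 and 168. Tyk2 was called in 1 comparison, lower with IFNγ than with αCD3 (-2.68 ± 0.91, adjusted p = 0.0406), and that call was lost on leaving out any 1 of the 6 libraries (0.0569 to 0.0818). Against Naïve it was -2.09 ± 0.91 with IFNγ (interval -4.12 to -0.07, adjusted p = 0.181), 0.59 ± 0.79 with αCD3 and 0.37 ± 0.80 with LPS. Against LPS, IFNγ gave -2.46 ± 0.92 (adjusted p = 0.0547, and 0.0108 without LPS replicate 2), and αCD3 gave 0.22 ± 0.79 (interval -1.54 to 1.98). Tyk2 shares 31-base words with an antisense transcript, 1700084C06Rik, and 91.2% of them were found in no other gene. The part of shared reads in these values was not tested.

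**Figure D3:**
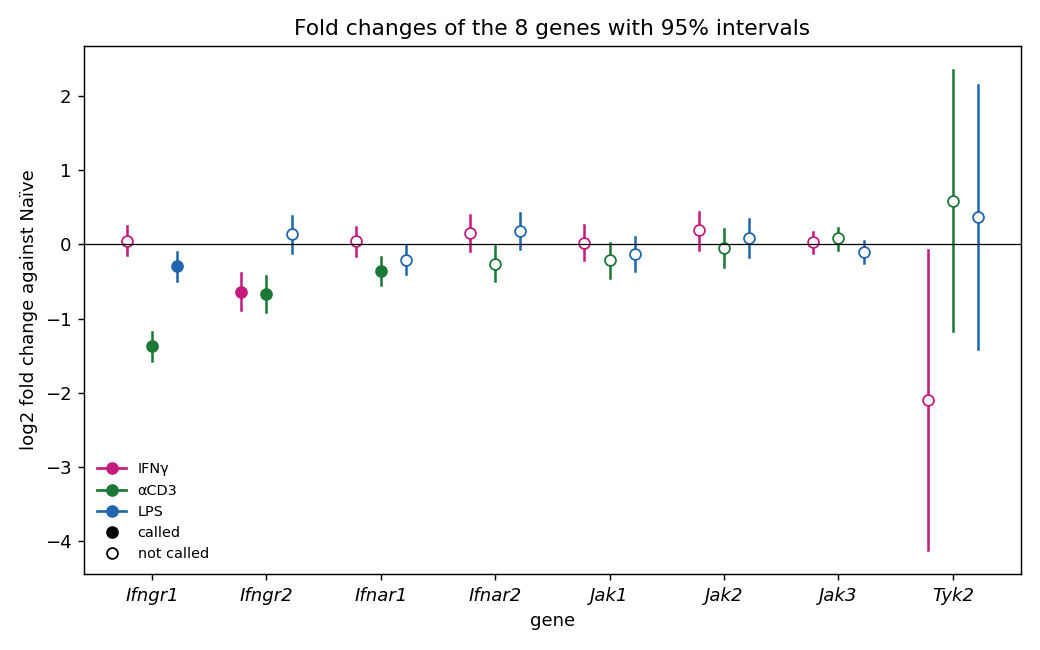
Log2 fold changes against Naïve (vertical axis) for the 8 genes (horizontal axis), with 95% intervals as lines, colours for the treatment and filled points for adjusted p under 0.05. Filled points are Ifngr1 with αCD3 and LPS, Ifngr2 with IFNγ and αCD3, and Ifnar1 with αCD3; the Tyk2 intervals are the widest.

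Counted over the 8 genes, IFNγ against Naïve had 0 called higher and 1 called lower, where 8.17% of all tested genes were higher and 4.27% lower. With αCD3, 0 were higher and 3 lower (22.9% and 15.7% of all tested genes), and 5 were lower with the replicate block (24.2%). With LPS, 0 were higher and 1 lower (26.9% and 22.3%), and with the block 1 was higher and 3 were lower (31.0% and 28.4%). The median log2 fold change of the 8 genes was 0.03 with IFNγ, -0.24 with αCD3 and -0.01 with LPS, beside -0.02, -0.02 and -0.01 over all tested genes. The 3 comparisons share the Naïve libraries, so their values are not independent.

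Between treatments, 3 genes were higher and 1 lower with IFNγ than with αCD3, where 15.8% and 21.4% of all tested genes were, and 5 were higher with the block (23.7%). With IFNγ against LPS 2 were higher and 1 lower (18.0% and 22.4%), and 4 were higher with the block (25.8%). With αCD3 against LPS 0 were higher and 3 lower (9.64% and 9.76%), and 1 was higher with the block (16.5%). The median over the 8 genes was 0.23, 0.12 and -0.14 in these comparisons, beside 0.03, 0.04 and -0.01 over all tested genes.

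Levels of different genes were set side by side as CPM per kilobase of mean transcript length in the Naïve libraries. Ifngr1 (637 ± 8.08 SD, n = 3) and Jak1 (608 ± 66.6) were the highest and overlapped in spread. Ifnar1 followed at 102 ± 3.07, then Jak3 at 71.3 ± 1.15, Jak2 at 71.2 ± 10.7 and Ifngr2 at 67.3 ± 0.66, where the spread of Jak2 covered both neighbours, and then Ifnar2 at 45.3 ± 3.95. Tyk2 came last at 2.02 ± 0.699. By the longest transcript of each gene Ifngr1 was at 315, above Jak1 at 159, and Ifnar1, at 46.7, came after Jak3 at 61.4 and Jak2 at 57.3, so the order in the middle depends on the transcript length used. Ifngr1 was the more abundant IFNγ receptor chain and Ifnar1 the more abundant type I chain by both lengths.

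Of 12 IFNγ target genes, 11 rose and 0 fell with IFNγ (median log2 fold change 2.38), 9 rose and 1 fell with αCD3 (0.78) and 10 rose and 1 fell with LPS (1.75). Over all tested genes 8.17% were higher and 4.27% lower with IFNγ, 22.9% and 15.7% with αCD3, and 26.9% and 22.3% with LPS, and the list counts that follow are to be read beside these shares. The chemokine gene Cxcl9 rose by 6.46 ± 0.92 with IFNγ (adjusted p = 0.00164) and by 3.05 ± 0.87 with αCD3 (adjusted p = 0.019), the latter lost without Naïve replicate 1 or 3 or αCD3 replicate 2 and by limma-voom (adjusted p = 0.12). Cxcl10, another chemokine gene, rose by 5.51 ± 0.85 with IFNγ, 3.76 ± 0.79 with αCD3 and 6.07 ± 0.87 with LPS. The GTPase genes followed, Gbp2 with 4.09 ± 0.40 with IFNγ and 2.69 ± 0.38 with LPS, and Irgm1 with 1.67 ± 0.39 with αCD3 and 2.58 ± 0.40 with LPS. Between αCD3 and Naïve, 10 of the IFNγ target genes were called, and 3 without αCD3 replicate 2, 5 without Naïve replicate 1, 6 without Naïve replicate 3 and 6 without αCD3 replicate 3.

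Of 12 type I interferon target genes, 12 rose and 0 fell in each of the 3 comparisons, with medians of 3.86 with IFNγ, 2.60 with αCD3 and 3.88 with LPS. Mx1, an antiviral GTPase gene, rose by 4.50 ± 0.82 with IFNγ and 3.76 ± 0.79 with αCD3. Ifit3, an interferon-induced antiviral gene, rose by 4.77 ± 0.63 with IFNγ and 4.43 ± 0.62 with LPS, and Ifi44 rose by 4.80 ± 0.91, 3.65 ± 0.91 and 4.42 ± 0.90 with IFNγ, αCD3 and LPS, the first 2 not called by limma-voom (adjusted p = 0.0751 and 0.195). Rsad2, which encodes viperin, rose by 3.44 ± 0.75 with αCD3, and Isg15, a ubiquitin-like modifier, by 4.38 ± 0.80 with LPS. Many of these genes are also known targets of IFNγ, so the list does not tell the 2 interferon types apart. Of 20 interferon genes, 16 were in the table and 1, Ifng, passed the filter. Few counts fell on the others, which had at most 3 in any library. Without the filter 4 interferon genes were called higher with LPS, Ifng and 3 with 0 counts in every Naïve library, namely Ifna4 (3, 2 and 3 counts with LPS), Ifna1 (1, 3 and 3) and Ifnb1 (2, 1 and 3), which are named after their values were seen. Ifng held 37, 30 and 61 counts in Naïve, 123, 491 and 387 in αCD3, 24, 45 and 52 in IFNγ and 85, 3572 and 3238 in LPS libraries, and rose with LPS (6.19 ± 1.25, adjusted p = 0.00234), where replicate 1 stood far below the other LPS libraries and limma-voom gave no call (adjusted p = 0.0984). With αCD3 the change of Ifng was 3.25 on the log2 scale and was not called, but it was with the replicate block, with DESeq2, with the 6 libraries of the pair alone and without αCD3 replicate 1.

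**Figure D4:**
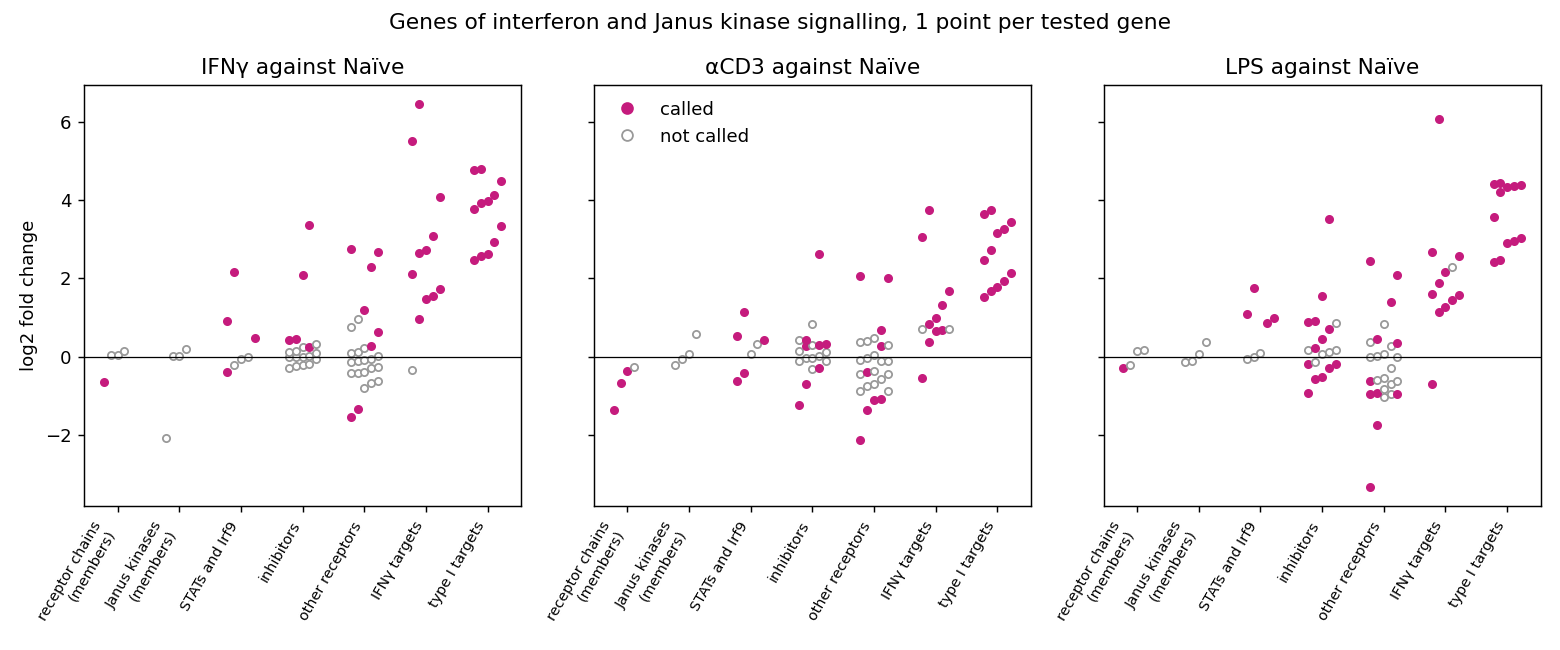
Log2 fold change against Naïve (vertical axis) for each tested gene of 7 groups (horizontal axis) in the 3 treatments, filled where the adjusted p was under 0.05. The receptor chains and, but for Tyk2, the kinases lie near 0 or below it, while 12 of 12 type I target genes lie above 0 in every panel.

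Among 7 genes of the STAT factors and Irf9, 3 rose and 1 fell with IFNγ, 3 rose and 2 fell with αCD3 and 4 rose and 0 fell with LPS (medians -0.01, 0.33 and 0.86). With IFNγ, 2 were called in place of 4 without Naïve replicate 2 or 3 or without any 1 of the 3 IFNγ libraries. Stat2, the type I interferon STAT, rose by 2.17 ± 0.31 with IFNγ, 1.13 ± 0.30 with αCD3 and 1.75 ± 0.31 with LPS, the αCD3 call being lost without Naïve replicate 1 or αCD3 replicate 2 or 3. Irf9, its DNA-binding partner, rose by 0.91 ± 0.11 with IFNγ. Stat3, a STAT of the IL-6 family, rose by 0.99 ± 0.13 with LPS and by 0.47 ± 0.13 with IFNγ, where leaving out any 1 of the 6 libraries ended the call. Stat5a rose by 0.54 ± 0.09 with αCD3 and 1.10 ± 0.09 with LPS, and fell by 0.38 on the log2 scale with IFNγ (SE 0.09, adjusted p = 0.0239). That fall was not called without Naïve replicate 2 or 3 or without any 1 of the 3 IFNγ libraries. Stat5b, the close relative of Stat5a in IL-2 signalling, fell by 0.62 on the log2 scale with αCD3 (SE 0.07).

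Of 19 inhibitors of the pathway, 5 rose and 0 fell with IFNγ, 5 rose and 3 fell with αCD3 and 7 rose and 6 fell with LPS (medians 0.10, 0.12 and 0.16). With αCD3 both counts were near the shares of all tested genes (22.9% and 15.7%). With the block, 6 rose and 2 fell with IFNγ (13.5% and 11.4% of all tested genes). Usp18, which blocks the kinase at IFNAR2, rose by 3.36 ± 0.67 with IFNγ, 2.62 ± 0.65 with αCD3 and 3.51 ± 0.67 with LPS. Socs1, an inhibitor of JAK1 and JAK2, rose by 2.10 ± 0.53 with IFNγ (adjusted p = 0.0272) and by 1.55 ± 0.52 with LPS (adjusted p = 0.0306), and both calls were lost without Naïve replicate 1 or 2 or without replicate 2 or 3 of the treated group. With LPS it stood at 88.0, 318 and 303 CPM, where replicate 1 lay within the Naïve values (50.2, 77.2 and 115 CPM). Ptprc, the phosphatase CD45, rose by 0.44 ± 0.05 with IFNγ and 0.33 ± 0.05 with αCD3, and was lower with LPS (-0.19 ± 0.05, adjusted p = 0.0152). Socs3, an inhibitor of the IL-6 family receptors, was 2.36-fold lower with αCD3 (adjusted p = 0.00702) and higher with LPS (0.90 ± 0.28, adjusted p = 0.0238). Pias3, an inhibitor of STAT3, fell by 0.71 on the log2 scale with αCD3 (SE 0.14) and by 0.92 with LPS (SE 0.14). The count with IFNγ fell to 2 without Naïve replicate 2 and also moved by over 1.5 times without Naïve replicate 3 or IFNγ replicate 2 or 3.

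Of 32 other receptor chains that use Janus kinases, 26 were tested, of which 6 rose and 2 fell with IFNγ, 4 rose and 5 fell with αCD3 and 5 rose and 6 fell with LPS (medians -0.08, -0.24 and -0.41). The shares of all tested genes higher and lower were 8.17% and 4.27%, 22.9% and 15.7%, and 26.9% and 22.3% in the same order. With the block the counts of receptor chains were 8 and 5 with IFNγ, 6 and 10 with αCD3 and 8 and 12 with LPS, where 13.5% and 11.4%, 28.1% and 24.2%, and 31.0% and 28.4% of all tested genes were higher and lower with the block. The IL-12 receptor chains Il12rb1 and Il12rb2 rose by 2.75 ± 0.44 and 2.68 ± 0.53 with IFNγ. Il12rb1 rose by 2.07 ± 0.44 with αCD3 and Il12rb2 by 2.45 ± 0.52 with LPS. Il15ra, which presents IL-15, rose in all 3 comparisons (2.29 ± 0.30 with IFNγ, 2.02 ± 0.30 with αCD3 and 2.09 ± 0.30 with LPS). Il7r, the IL-7 receptor chain of resting T cells, fell by 2.12 on the log2 scale with αCD3 (SE 0.26, adjusted p = 1.57e-04), and Lifr, a chain for the cytokine LIF, by 3.34 with LPS (SE 0.34, adjusted p = 2.67e-05).

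The genes whose log2 CPM was closest to each member's over the 12 libraries were taken from 9605 genes by Pearson's r, as a description, since the libraries share groups and replicate numbers. They were Sema4f (0.991), Smap2 (0.987) and Vrk3 (0.978) for Ifngr1, and Acsl3 (0.935), Prkcb (0.926) and Dusp1 (0.923) for Ifngr2. For Ifnar1 they were Mfge8 (0.985), Dzip1 (0.983) and Cox7a2l (0.98), and for Ifnar2 Arid5a (0.955), Rgs1 (0.941) and Ciao2b (0.939). The nearest gene was Wasf2 (0.985) for Jak1, C1galt1c1 (0.921) for Jak2, Rnpep (0.924) for Jak3 and Dhrs4 (0.904) for Tyk2. The 2 chains of 1 receptor were thus not among each other's nearest genes.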

How the data were processed

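The 12 libraries (3 each of Naïve, αCD3, IFNγ and LPS) were grouped by their labels. Reads were assigned by the authors with Kallisto, a pseudo-aligner (version and transcript annotation not given in the sources used here) to mouse build mm10, and the deposited values are estimated counts (expected counts) per gene symbol, not scaled between libraries. The submitters' notes also name DESeq2 1.24.0. Kallisto divides reads that fit several transcripts among them, and its part in the values of Tyk2, Ifnar2 and Jak3 was not tested.

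Counts were rounded to whole numbers, filtered with filterByExpr, scaled with TMM factors and fitted for all 12 libraries together with edgeR 4.0.16 (quasi-likelihood F-test, R 4.3.3, limma 3.58.1). P-values were adjusted by Benjamini-Hochberg over 12122 genes and called under 0.05. CPM use the TMM-scaled library totals. Error terms are standard errors of the log2 fold change unless marked SD, and intervals are 95%. The procedure was tested on simulated data. The alternatives were other scaling factors, no filter, DESeq2 1.42.0, limma-voom, the 6 libraries of a pair alone, the replicate number as a block and each library left out.

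The replicate numbers of the labels were checked for pairing. Deviations from the group means correlated between same-numbered libraries in 18 of 18 pairs at over 0.1 (0.117 to 0.401), against -0.354 to 0.102 in 36 pairs of different numbers, so the numbers pair the libraries by these data, and blocked values are given where they change a member's call or move a count of calls by over 1.5 times. The members and gene lists were chosen with earlier results of these data known, so counts over them are descriptions. All 8 members are named in each comparison. From each list, up to 3 genes are named with the largest called change against Naïve and at least 5 CPM in the higher group, and for likeness the 3 genes of best correlation. One gene of the lists is not reported here. Il10rb, Cd79a, Gzma and single myeloid markers were named outside this rule, as were Stat5a with IFNγ, Socs3 with LPS and Ptprc with αCD3 and LPS. They were named, and the B cell sum was taken without Cd74, after the values were seen. Coordinates are from GENCODE M21 (GRCm38) and promoter sequences from RefSeq.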

Additional observations from a re-analysis of the deposited data

How the results depend on the processing

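Across 14 alternatives for each of the 48 fold changes of the members (672 refits), 620 kept their side of the threshold, 33 gained a call and 19 lost one, and 0 called values turned direction. The sign of uncalled values turned in 32 refits. Ifngr1, Ifngr2 and Ifnar1 with αCD3 and Ifngr2 with IFNγ were called in 14 of 14 alternatives, Ifngr2 with IFNγ at -0.78 to -0.62 (adjusted p = 1.61e-06 to 0.0246). The cause of the changed counts below was not tested.

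The numbers of members called moved as follows. With αCD3 against Naïve, 5 were called with upper quartile factors and 5 with the replicate block, in place of 3. With LPS against Naïve, 1 was called, and 2 with RLE factors, 3 with upper quartile factors, 4 with the library size alone, 2 with DESeq2, 4 with the replicate block and 2 with the 6 libraries of the pair alone, and on leaving out a library 0 (LPS replicate 2) to 2 (LPS replicate 1). With IFNγ against LPS, 5 were called with the replicate block in place of 3. The block also called Jak1 and Jak3 in the test over all 4 groups (6 members in place of 4), and it changed no member's call beyond this and those given in the report. Scaling by library size alone moved the median of all tested genes from -0.02 to -0.16 with IFNγ, from -0.02 to -0.13 with αCD3 and from -0.01 to -0.22 with LPS against Naïve, so small differences are read relative to that shift, and the sign of Ifngr1, Ifnar1, Jak1 and Jak3 with IFNγ, Jak3 with αCD3, and Ifngr2, Ifnar2 and Jak2 with LPS turned with it. Tyk2 rests on 0 to 335 counts per library.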
